A study of Homo sapiens with 6 samples.

Results

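A set of 8 genes that carry or adjust the signal from RAS to MEK was followed in AsPC-1 pancreatic cancer cells: HRAS, NRAS, ARAF, BRAF, MAP2K1, MAP2K2, KSR1 and NF1. They were taken by gene symbol from a table of 58735 genes, and all 8 had enough counts to be tested. The MAP kinases that MEK acts on are not among them. The cells were an established line of human pancreatic ductal adenocarcinoma, labelled wild type. The Vector group (n = 3 libraries) had received an empty lentivirus and the OE-MMP28 group (n = 3 libraries) a lentivirus carrying MMP28, a secreted matrix metalloproteinase. Per the study's methods, the virus also carried GFP and puromycin resistance and the stable lines were kept after puromycin selection, so each group is a selected pool. Whether the 3 samples of a group came from separate infections or cultures is not given in the sources used here, and p-values then measure only the spread between these samples, which may be technical. The comparison asks how the RNA of these genes differed when MMP28 was overexpressed.

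The libraries held 13633249 to 16691458 counts, and 3 counts in a library correspond to 0.180 to 0.220 CPM (counts scaled to a common library total). MMP28 was measured at 5.17, 9.11 and 8.43 FPKM (fragment counts scaled to gene length and library total) in the Vector libraries and at 13.1, 13.9 and 15.1 FPKM in the OE-MMP28 libraries, so the groups did not overlap (log2 fold change 0.90, SE 0.19, adjusted p = 0.00226, edgeR's quasi-likelihood test). The epithelial markers EPCAM, KRT8, KRT18 and KRT19 lay between 260 and 1455 FPKM in every library. The other 2 genes of that list were lower, KRT7 at 0.597 to 2.22 FPKM and CDH1, which encodes E-cadherin, at 17.3 to 22.01 FPKM in Vector and 10.9 to 14.8 FPKM in OE-MMP28, without overlap. The leukocyte marker CD3E was at 0 and PTPRC at most at 0.00807 FPKM, and the fibroblast collagen COL1A1 at most at 0.0708 FPKM, whereas LUM, on the fibroblast list, lay between 33.8 and 56.9 FPKM. In bulk RNA, fewer cells with a transcript and less of it per cell cannot be told apart.

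RAS proteins are small GTPases at the inner face of the plasma membrane that switch on when exchange factors load them with GTP. Active RAS recruits RAF kinases to the membrane, RAF phosphorylates the MEK kinases encoded by MAP2K1 and MAP2K2, and MEK phosphorylates ERK. KSR1 is a scaffold that brings RAF, MEK and ERK together, and NF1 encodes neurofibromin, which speeds GTP hydrolysis by RAS and so switches it off. The pathway is known in pancreatic cancer for activating RAS mutations.

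Of the 8 genes, 1 passed an adjusted p of 0.05. ARAF RNA was 1.5-fold higher in OE-MMP28 cells, and the remaining 7 genes did not pass in either direction. BRAF came next, with lower values in all 3 OE-MMP28 libraries than in any Vector library and an adjusted p of 0.0914 in edgeR's quasi-likelihood test. Over the 15319 genes tested, 23.4% passed the same threshold, 11.7% higher and 11.6% lower. The 1 gene of 8 is thus no larger a share than that of all genes tested. The median log2 fold change of the 8 genes was 0.079, beside 0.014 over all genes tested. The values of Vector and OE-MMP28 were fully separate in 2 of the 8 genes, beside 38.1% of all genes tested, and 2 of the 8 had an unadjusted p under 0.05, beside 35.8%.

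**Figure D1:**
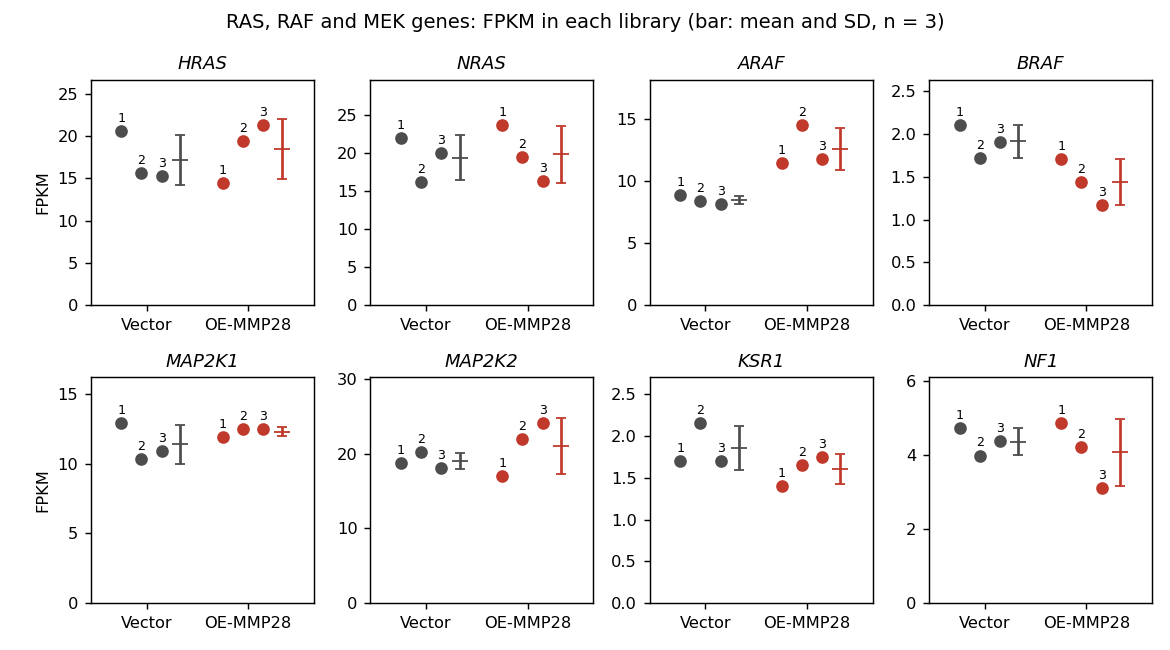
FPKM of each of the 8 genes (vertical axes, each starting at 0) in the 3 Vector and 3 OE-MMP28 libraries. Points are libraries and bars give the mean with its SD (n = 3). The groups separate without overlap for ARAF, higher in OE-MMP28, and for BRAF, lower in OE-MMP28.

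A-Raf and B-Raf, encoded by ARAF and BRAF, are the serine/threonine kinases that active RAS recruits. ARAF (ENSG00000078061) spans chrX:47561100-47571920 on the plus strand of GRCh38. The stretch just before its first annotated base is shown because ARAF was the single gene of the 8 that passed the test. It is the part of a RefSeq promoter window on GRCh38.p14 that precedes the gene as GENCODE annotates it, at chrX:47560955-47561099, plus strand, 5′ to 3′, with CG dinucleotides in capitals:
ARAF: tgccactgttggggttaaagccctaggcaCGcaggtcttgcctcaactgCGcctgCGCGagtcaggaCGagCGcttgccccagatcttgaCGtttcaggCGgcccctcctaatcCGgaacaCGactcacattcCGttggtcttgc
These 145 bases were 60% G and C. The whole ARAF window of 250 bases before the RefSeq start was 59.2% G and C with 18 CG dinucleotides, against medians of 58% and 11 over 35116 such windows. The GC box letters GGGCGG, read on either strand, were absent from the ARAF window and occurred in 42.6% of all windows. The 8 genes had 12 such windows, as some genes had several. Of these 12 windows, 5 held the letters, each in a different gene, namely HRAS, NRAS, MAP2K1, MAP2K2 and KSR1. The only windows of BRAF and of HRAS each lay inside the gene as GENCODE annotates it and outside its exons. The letters counted for HRAS thus lie within the gene, and neither window is shown.

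ARAF held 477, 399 and 425 counts in the Vector libraries and 639, 813 and 700 in the OE-MMP28 libraries. Per length, its level was 8.83, 8.35 and 8.16 FPKM in Vector and 11.4, 14.5 and 11.8 FPKM in OE-MMP28. The Vector libraries lay close together, every OE-MMP28 library was above them, and OE-MMP28 replicate 2 was the highest. The group means were 8.44 ± 0.344 and 12.6 ± 1.69 FPKM (SD, n = 3), and the log2 fold change was 0.59 (SE 0.16, 95% interval 0.25 to 0.92, adjusted p = 0.0127, edgeR's quasi-likelihood test). The call was lost without OE-MMP28 replicate 2 (0.45, adjusted p = 0.128) and without Vector replicate 3 (0.56, adjusted p = 0.0655). The call stood in the other 20 of 22 alternatives. The median log2 fold change of the tested genes within 10 Mb of ARAF was 0.020.

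BRAF (ENSG00000157764) spans chr7:140719327-140924928 on the minus strand. It held 755, 545 and 660 counts in Vector and 634, 534 and 462 in OE-MMP28, and the values per length were 2.11, 1.72 and 1.91 FPKM in Vector and 1.71, 1.44 and 1.17 FPKM in OE-MMP28. The highest OE-MMP28 library lay just under the lowest Vector library. The means were 1.91 ± 0.193 and 1.44 ± 0.270 FPKM (SD, n = 3). The difference was −0.40 on the log2 scale (SE 0.17, 95% interval −0.75 to −0.050). BRAF passed in 1 of 22 alternatives, without OE-MMP28 replicate 1, at −0.55 on the log2 scale and an adjusted p of 0.0275. Exons of NDUFB2, on the other strand, cover 5.29% of the BRAF exon bases, and whether the counting used strand is not given in the sources used here. NDUFB2 held 1111, 772 and 854 counts in Vector and 986, 1547 and 1752 in OE-MMP28, and its part in the BRAF values was not tested.

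KSR1 (ENSG00000141068), the scaffold that resembles RAF kinases, spans chr17:27456470-27626438 on the plus strand. It was measured at 1.703, 2.16 and 1.699 FPKM in Vector and at 1.41, 1.66 and 1.75 FPKM in OE-MMP28. Vector replicate 2 was the highest and OE-MMP28 replicate 1 the lowest, and the groups overlapped. The log2 fold change was −0.20 with a 95% interval from −0.57 to 0.18 (adjusted p = 0.463).

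The ratio of ARAF to BRAF, in FPKM, was 4.19, 4.85 and 4.27 in the Vector libraries and 6.68, 10.09 and 10.04 in the OE-MMP28 libraries. A ratio within a library does not depend on how libraries are scaled against each other. It is not free of library differences tied to G and C content, which was 58.9% for ARAF and 40.03% for BRAF. The means of the ratio were 4.44 ± 0.363 and 8.94 ± 1.96 (SD, n = 3), and the ratio differed 1.98-fold, or by 0.99 on the log2 scale. With an offset for G and C content and gene length in edgeR's fit, this log2 difference was 0.88. A two-sided exact permutation test returned p = 0.1, which is the smallest p that 3 against 3 libraries allow, and 0.3 after adjustment over the 3 ratios tested, so this design could not pass the threshold. ARAF made up 81.6% ± 1.19 of the summed FPKM of ARAF and BRAF in Vector and 89.6% ± 2.30 in OE-MMP28 (SD, n = 3). Since both genes were already seen not to overlap between groups, this ratio restates their values and is not separate evidence.

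**Figure D2:**
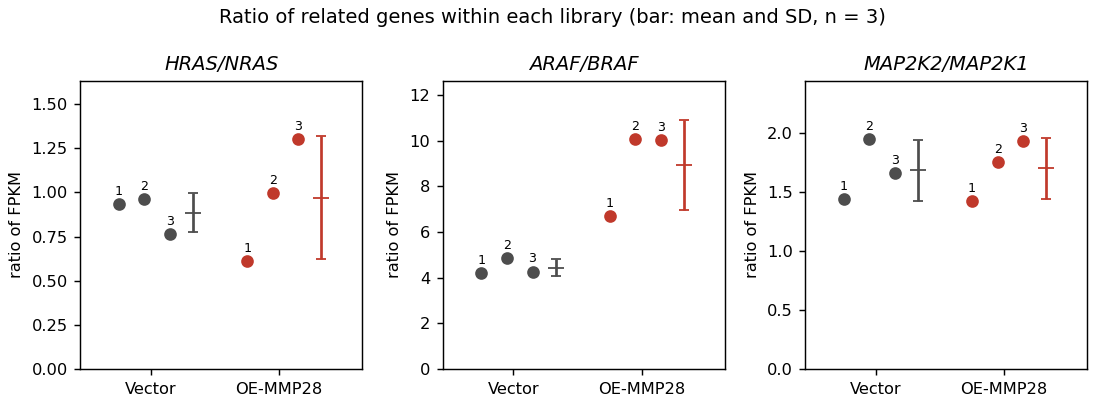
FPKM ratios of the related genes HRAS/NRAS, ARAF/BRAF and MAP2K2/MAP2K1 in each library. Points are libraries of the Vector and OE-MMP28 groups (n = 3 each). The ARAF/BRAF ratio lies at 4.19 to 4.85 in Vector and at 6.68 to 10.1 in OE-MMP28, while the groups overlap for the other pairs.

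The RAS genes differed between groups by less than the spread within them. HRAS (ENSG00000174775, chr11:532242-537287, minus strand) was measured at 20.5, 15.6 and 15.3 FPKM in Vector and 14.5, 19.5 and 21.3 FPKM in OE-MMP28. Both the highest and the lowest value were in OE-MMP28. Its log2 fold change was 0.12 (SE 0.18, 95% interval −0.26 to 0.50, adjusted p = 0.684). NRAS (ENSG00000213281, chr1:114704469-114716894, minus strand) was measured at 22.04, 16.2 and 20.04 FPKM in Vector and 23.7, 19.5 and 16.3 FPKM in OE-MMP28. Its order among the OE-MMP28 libraries was the opposite of that of HRAS. The log2 fold change of NRAS was 0.04 (95% interval −0.30 to 0.39, adjusted p = 0.892), and its sign turned in 5 of 22 alternatives, among them a scaling to the upper quartile. The HRAS to NRAS ratio ran from 0.762 to 0.963 in Vector and from 0.610 to 1.30 in OE-MMP28 (two-sided exact permutation p = 0.8).

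NF1 (ENSG00000196712, chr17:31094927-31382116, plus strand), which acts against RAS, was measured at 4.71, 3.98 and 4.36 FPKM in Vector and 4.87, 4.21 and 3.10 FPKM in OE-MMP28. OE-MMP28 replicate 3 was the lowest of all and replicate 1 the highest. The log2 fold change was −0.09 (95% interval −0.43 to 0.25, adjusted p = 0.732), and it turned to 0.068 without OE-MMP28 replicate 3.

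The MEK genes also did not pass. MAP2K1 (ENSG00000169032, chr15:66386817-66492312, plus strand) was measured at 13.0, 10.3 and 10.9 FPKM in Vector and 11.9, 12.5 and 12.5 FPKM in OE-MMP28, and the OE-MMP28 values lay inside the range of the Vector values. Its log2 fold change was 0.12 (95% interval −0.21 to 0.45, adjusted p = 0.620). Exons on the other strand overlapped it, with 11.5% of its exon bases covered by AC116913.1 (13 to 26 counts a library) and 5.75% by SNAPC5 (184 to 298 counts). MAP2K2 (ENSG00000126934, chr19:4090321-4124129, minus strand) was measured at 18.7, 20.2 and 18.1 FPKM in Vector and 16.96, 21.9 and 24.2 FPKM in OE-MMP28. Its OE-MMP28 values reached both below and above the Vector values, with a log2 fold change of 0.16 (95% interval −0.17 to 0.49, adjusted p = 0.508). The MAP2K2 to MAP2K1 ratio averaged 1.69 ± 0.257 in Vector and 1.705 ± 0.259 in OE-MMP28 (SD, n = 3, two-sided exact permutation p = 1). For all 7 genes that did not pass, the 95% intervals above give the differences these libraries leave possible.

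**Figure D3:**
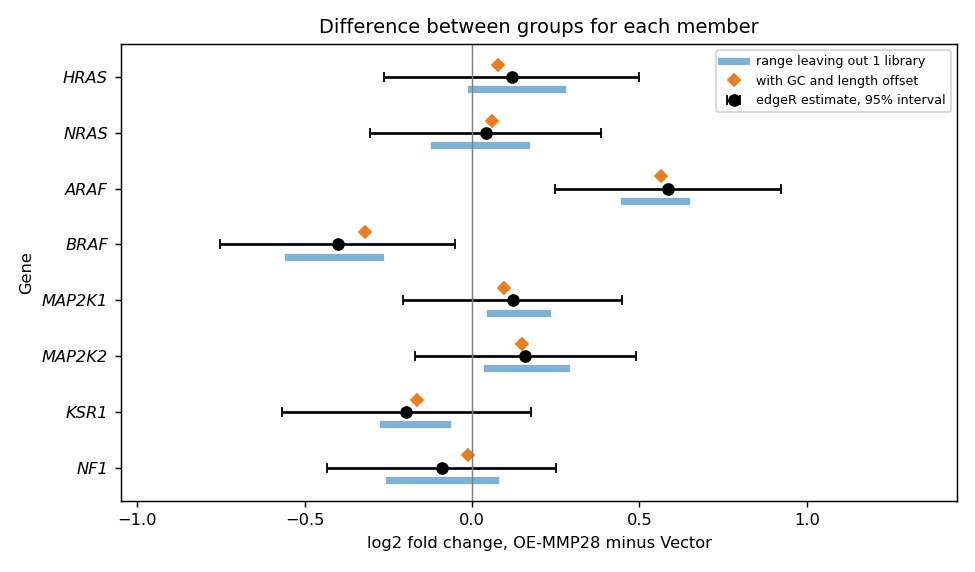
Log2 fold change of each of the 8 genes, OE-MMP28 minus Vector, with its 95% interval from edgeR's quasi-likelihood fit. The intervals of ARAF (0.25 to 0.92) and BRAF (−0.75 to −0.050) do not reach 0, and ARAF alone has an adjusted p under 0.05.

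Other overlaps were small. SYN1 covers 0.651% of the ARAF exon bases and held at most 1 count in a library. The genes overlapping exons of KSR1, AC015688.4 on the same strand and AC015688.6 on the other, held 0 counts, and those overlapping exons of NF1 each covered at most 0.560% of them. Annotated pseudogene copies of the 8 genes held at most 2 counts in any library.

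Levels between genes were compared per length. Over the 6 libraries the mean was 20.01 FPKM for MAP2K2, 19.6 for NRAS, 17.8 for HRAS, 11.8 for MAP2K1, 10.5 for ARAF, 4.20 for NF1, 1.73 for KSR1 and 1.68 for BRAF. The ranges of neighbours in this order overlapped for MAP2K2 and NRAS, for NRAS and HRAS, for MAP2K1 and ARAF, and for KSR1 and BRAF, so these neighbours were not set apart. HRAS was above MAP2K1, ARAF above NF1 and NF1 above KSR1 in 6 of 6 libraries, with no overlap of ranges. By group means, ARAF ranked below MAP2K1 in Vector (8.44 against 11.4 FPKM) and above it in OE-MMP28 (12.6 against 12.3 FPKM). The latter step was smaller than the SD of ARAF. MAP2K1 was above ARAF in 5 of 6 libraries, all but OE-MMP28 replicate 2 (12.5 against 14.5 FPKM). The order depends on the length used. With the longest coding transcript in place of the deposited gene length, the Vector mean of MAP2K2 was 57.8 and that of HRAS 26.0, above NRAS at 19.6, and 2 of 8 genes kept their rank.

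Within the OE-MMP28 group, most of the 8 genes varied between libraries along with their base composition. For each library, the deviation of log2(FPKM + 1) from the mean of all 6 libraries was taken for each gene. Its median over the quartile of genes poorest in G and C was subtracted from that over the richest (12824 genes averaging 1 FPKM or more). This contrast was −0.36, 0.13 and 0.31 in OE-MMP28 replicates 1, 2 and 3, and −0.068, 0.12 and −0.15 in Vector replicates 1, 2 and 3. It thus includes differences between the groups, whereas the values of single genes below are deviations from their own group mean. NRAS, BRAF and NF1, with 38.4%, 40.03% and 41.6% G and C in their longest transcript, lay 0.27, 0.27 and 0.29 above the group mean on the log2 scale in OE-MMP28 replicate 1. HRAS and MAP2K2, with 65.8% and 60.9%, lay at −0.33 and −0.29 in that library. In replicate 3 the signs were turned, with NRAS, BRAF and NF1 at −0.26, −0.28 and −0.36, and HRAS and MAP2K2 at 0.23 and 0.22. ARAF, at 58.9% G and C, ran otherwise, at −0.13, 0.22 and −0.087.

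**Figure D4:**
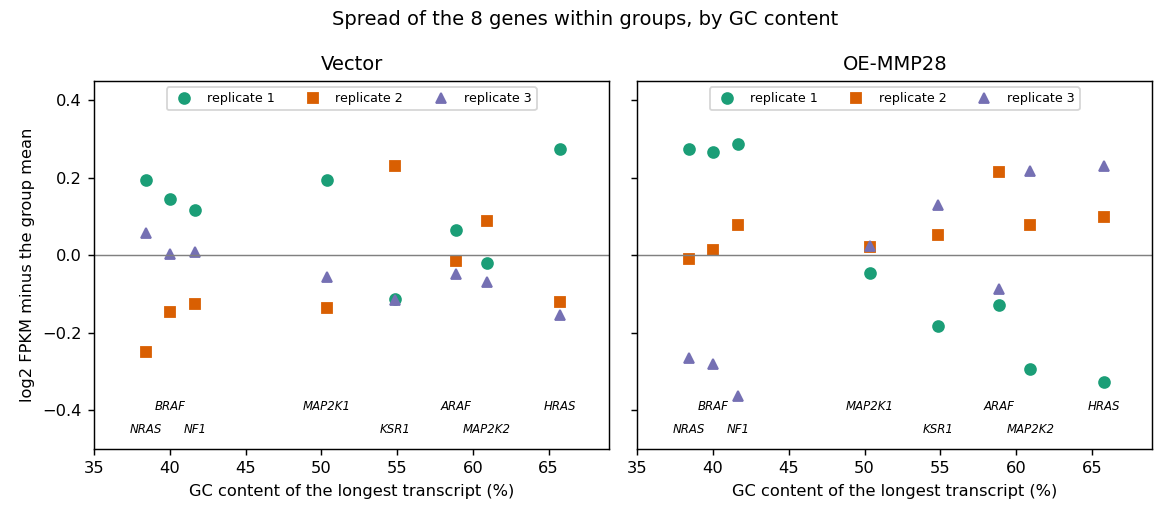
Log2 deviation of each of the 8 genes from its group mean in each library, against the G and C content of its longest transcript in percent. In OE-MMP28 replicate 1 the genes poor in G and C sit above 0 and HRAS and MAP2K2 below it, and in replicate 3 the other way round.

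With an offset for G and C content and gene length in the fit, the standard errors of all 8 genes were smaller, for instance 0.10 in place of 0.16 for MAP2K2 and 0.12 in place of 0.17 for NRAS. ARAF then had a log2 fold change of 0.56 (SE 0.13) and an adjusted p of 0.00532 in edgeR's quasi-likelihood test. BRAF was at −0.32 (SE 0.12) with an adjusted p of 0.0640, and the remaining 6 genes had adjusted p-values from 0.286 to 0.954.

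The genes whose level followed that of ARAF most closely over the 6 libraries included TRAF3 and IL4R. Their centred log2 profiles lay at a root mean square distance of 0.058 and 0.063 from that of ARAF, against a median of 0.347 over 10438 protein-coding genes compared. The 6 points share the group difference, so the likeness includes it.

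Around the 8 genes, 63 further genes of the pathway were read in 6 lists, and 58 of them were tested. Of these, 6 were higher and 9 lower in OE-MMP28, so 15 of 58 passed, beside 23.4% of all genes tested. The counts of each list below stand beside that same share. RASGRP1, RASGRP3, RASAL1, MRAS and KSR2 had too few counts. The count of 15 fell to 9 without Vector replicate 3, to 9 without OE-MMP28 replicate 3 and to 5 without OE-MMP28 replicate 2. The count over all genes fell alongside, from 3579 of 15319 to 2367 of 15704, 2659 of 15678 and 2029 of 15700. SOS1, HSP90AA1, FNTA, EPHA2 and EPHA4 passed without each library in turn.

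Among the activators and adaptors of RAS, 2 of 7 tested genes fell and none rose (median log2 fold change 0.016). SOS1, the exchange factor that loads RAS with GTP, was at 9.20, 10.4 and 10.03 FPKM in Vector and at 6.95, 6.07 and 4.88 FPKM in OE-MMP28 (log2 fold change −0.72, adjusted p = 0.00268), and every OE-MMP28 library was below the Vector libraries. RASGEF1A, also an exchange factor, fell from 16, 12 and 19 counts to 4, 2 and 6 counts (adjusted p = 0.00795), and its call was lost without OE-MMP28 replicate 2 (adjusted p = 0.0577). Among the inactivators, which switch RAS off or hold back RAF, 1 of 10 rose and none fell (median −0.030). That gene was SPRED3, at 0.266 ± 0.0807 FPKM in Vector and 0.509 ± 0.0371 in OE-MMP28 (SD, n = 3, adjusted p = 0.0437). SPRED3 passed in 6 of 16 alternatives. Its call was lost in DESeq2 (adjusted p = 0.0892) and without any single library other than Vector replicate 3 (adjusted p from 0.0811 to 0.119). Among the relatives of RAS, 0 of 8 tested genes passed in edgeR's quasi-likelihood test (median 0.061), where 2 had an unadjusted p under 0.05. DESeq2 called 1 of them and limma 0, and without Vector replicate 1 edgeR called 1.

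Among the scaffolds and regulators of RAF and MEK, 1 of 12 rose and 2 fell (median −0.15). HSP90AA1, a chaperone of RAF kinases, was at 241, 113 and 153 FPKM in Vector and at 370, 305 and 264 FPKM in OE-MMP28 (log2 fold change 0.90, adjusted p = 0.00344). SHOC2 and PPP1CB, parts of the phosphatase complex that removes an inhibitory phosphate from RAF, fell by 0.56 and 0.48 on the log2 scale (adjusted p = 0.0199 and 0.0259). The list's count of 3 fell to 1 without Vector replicate 1, OE-MMP28 replicate 2 or OE-MMP28 replicate 3, to 0 with limma on log2(FPKM + 1), and became 6 with the offset for G and C content and length.

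Among the genes that process RAS for the membrane, 1 of 11 rose and 3 fell (median −0.17). FNTA and FNTB encode the subunits of farnesyltransferase, which adds the lipid anchor. FNTA fell from 10.9 ± 1.20 to 6.55 ± 0.780 FPKM (SD, n = 3, adjusted p = 0.00195), and FNTB rose from 1.62 ± 0.470 to 2.53 ± 0.172 FPKM (adjusted p = 0.0431). GOLGA7, a partner of the RAS palmitoyltransferase, and LYPLA1, a depalmitoylating enzyme, fell by 0.51 and 0.55 on the log2 scale (adjusted p = 0.0276 and 0.0429), and the groups overlapped for LYPLA1. The list's count of 4 fell to 1 without Vector replicate 1, Vector replicate 3, OE-MMP28 replicate 2 or OE-MMP28 replicate 3. FNTB passed in 7 of 19 alternatives and was lost in DESeq2 (adjusted p = 0.0576), while FNTA passed in 18 of 19.

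Among the genes known as output of ERK signalling, 3 of 10 rose and 2 fell (median 0.32), beside 23.4% of all genes tested that passed. In edgeR's quasi-likelihood test, 8 of the 10 had an unadjusted p under 0.05, beside 24 of the 58 listed genes and 35.8% of all genes tested. EPHA2, a receptor tyrosine kinase, was at 56.8, 51.6 and 46.3 FPKM in Vector and at 75.2, 94.6 and 93.3 FPKM in OE-MMP28 (log2 fold change 0.78, adjusted p = 0.00103). EPHA4, a related receptor, was at 5.18, 4.09 and 5.12 FPKM in Vector and at 2.01, 2.07 and 1.72 FPKM in OE-MMP28 (log2 fold change −1.30, adjusted p = 2.39e-05). ETV5, a transcription factor, and CCND1, encoding cyclin D1, were higher by 0.61 and 0.52 (adjusted p = 0.00712 and 0.0207). SPRY2, a feedback inhibitor of the pathway, fell by 0.53 (adjusted p = 0.0141). PHLDA1, SPRY4, DUSP4, DUSP6 and ETV4 did not pass. The count of 5 became 2 without OE-MMP28 replicate 2, 3 without Vector replicate 3 and 8 with the offset for G and C content and length, under which 4819 of 15319 genes passed over the whole table.

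**Figure D5:**
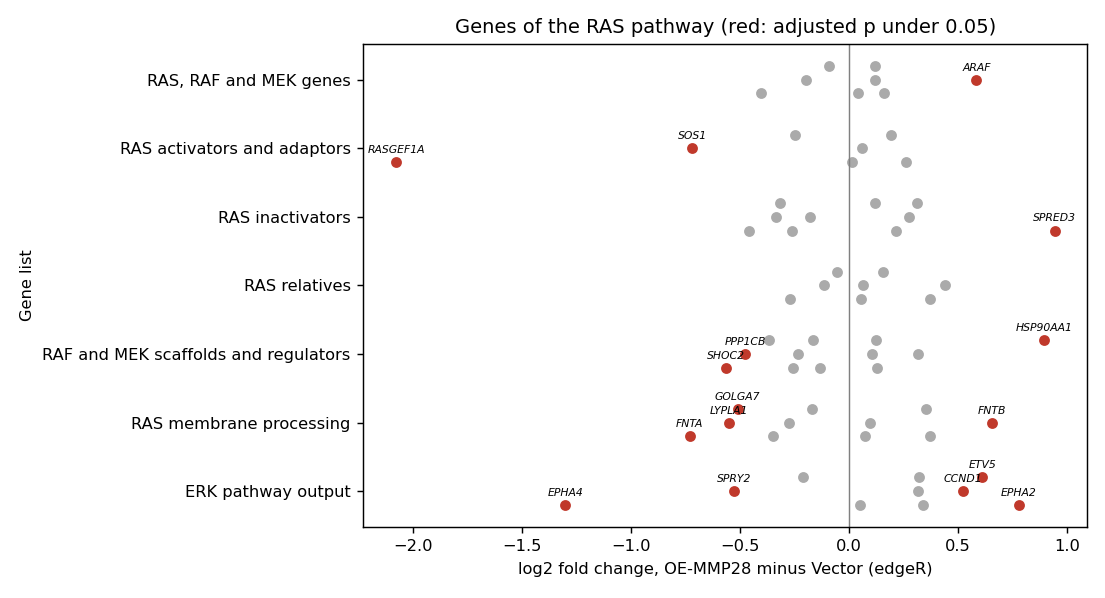
Log2 fold change, OE-MMP28 minus Vector, of the 8 genes and of the tested genes in the 6 pathway lists, each point a gene and each row a list. Red points, which are labelled, have an adjusted p under 0.05, 1 of the 8 genes and 15 of the 58 listed genes.

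Many of these 15 genes lay where their neighbours had moved the same way. The median log2 fold change of tested genes within 10 Mb was −0.40 for SOS1, −0.44 for SHOC2, −0.52 for PPP1CB, −0.32 for FNTA, 0.55 for HSP90AA1 and 0.45 for ETV5. Relative to that local median, EPHA4, EPHA2 and SPRY2 stayed under an adjusted p of 0.05 (0.000317, 0.000976 and 0.0461) and the other 12 did not, with SOS1 at 0.179 and PPP1CB turning to 0.040 on the log2 scale. The same medians around the 8 genes lay between −0.071 for BRAF and 0.14 for NRAS.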

How the data were processed

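RNA from 3 Vector and 3 OE-MMP28 samples of AsPC-1 cells was sequenced from NEBNext Ultra libraries. The authors deposited gene counts, not normalised, and FPKM, which are counts divided by gene length and library total, in 1 table; the submitters' processing notes name HISAT2 2.0.5 and featureCounts 1.5.0-p3, and the genome build is not given in the sources used here. Gene coordinates in the table matched GENCODE 29 on GRCh38 for all 58735 genes. The FPKM values imply library totals within −2.01% to 2.02% of the summed counts. The table also holds group means, fold changes and p-values of the authors' own comparison, which were not used. The study tested with limma at p under 0.05, and its list of changed genes also required an absolute log fold change above 1. That fold cut-off was not used here, so the counts are not alike. Counts call for a count test, so edgeR 4.0.16 was used here in R 4.3.3 (quasi-likelihood F test, TMM scaling, filterByExpr with a minimum count of 10 and total of 15, group as the sole term), with Benjamini-Hochberg adjustment over the 15319 genes tested. DESeq2 1.42.0, limma 3.58.1 (log2(FPKM + 1)), other scalings and filters, offsets for G and C content with length (mgcv 1.9.3) and for the local median, a replicate block and leaving out each library were alternatives. The offset for a 5 Mb window, the 2 combined offsets and the transcript length were chosen after seeing the data. Ratios were tested with exact permutation tests. Intervals of fold changes are at 95%, from the SE of the fit. All 8 genes and MMP28 are named, with every listed gene that passed (at most 5 per list), the 3 genes nearest ARAF in profile (1 of them is not reported here) and genes overlapping exons. The members and lists were chosen with earlier results of these data known. The scripts were tested on simulated data. Libraries differed from each other by more than sampling noise, so none was counted together. Depth was 13633249 to 16691458 counts per sample.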

Additional observations from a re-analysis of the deposited data

How the results depend on the processing

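The sign and the side of the threshold held for KSR1, MAP2K1 and MAP2K2 in all 22 alternatives. Without 1 library, between 0 and 2 of the 8 genes passed, 0 without Vector replicate 3 or OE-MMP28 replicate 2 and 2 without OE-MMP28 replicate 1. Between 985 and 1916 genes were then higher and between 1044 and 1949 lower over all genes, and 5 to 14 of the listed pathway genes passed. On the log2 scale MMP28 then ranged from 0.69 to 1.052, HRAS from −0.0036 to 0.27, NRAS from −0.11 to 0.16 and NF1 from −0.25 to 0.068. Limma on log2(FPKM + 1) called 1009 genes higher, 965 lower and 6 pathway genes, and on log2(FPKM + 0.1) it called 1000, 970 and 6. Relative to the local median within 10 Mb, 1101 genes were higher and 8 pathway genes passed, and within 5 Mb 1137 genes were higher. The offset for G and C content and length gave 27 pathway genes, with 4819 of 15319 genes over the whole table (2539 higher, 2280 lower). The causes were not tested. Ranks of level held for 4 genes in the Vector libraries alone, for 6 in the OE-MMP28 libraries alone and for 2 with the longest coding transcript. Signs turned for NRAS, HRAS, NF1 and PPP1CB. NRAS was at −0.076 without Vector replicate 2, −0.11 without OE-MMP28 replicate 1, −0.0074 with upper-quartile scaling, and −0.097 and −0.14 relative to the local median within 10 and 5 Mb. HRAS was at −0.0036 and NF1 at 0.068 without OE-MMP28 replicate 3, NF1 at 0.070 when the offset for G and C content and length was added to that, and PPP1CB at 0.040 relative to the local median within 10 Mb. Same-numbered libraries did not deviate together (correlations 0.033, 0.030 and −0.092), so the numbers were not taken as pairs. With the replicate block, 1 of the 8 genes passed (ARAF, 0.58, adjusted p = 0.0135), with 1844 genes higher, 1841 lower and 15 pathway genes. Depth limited RASGEF1A, at 2 to 19 counts.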
